A study of Mus musculus with 15 samples.

Results

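The bicarbonate transporters and anion exchangers described here are genes of the SLC4 and SLC26 families, whose proteins move bicarbonate, chloride and related anions across membranes. Of 10 listed genes, 9 were found among the 19938 genes named on the array by their platform gene symbol, each read from whichever of its probe sets had the highest mean. Slc4a7, which encodes the electroneutral sodium-bicarbonate cotransporter NBCn1, had no probe set with it as the only gene symbol in the platform annotation and was not analysed here. Of the 9 genes, 7 passed the filter on low values, a log2 signal above 5.31 in at least 5 arrays, as did 10109 genes in all.

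RNA came from the choroid plexus of the brain ventricles, taken at 3 weeks of age from mice of the C57BL/6J strain that were all labelled male. There were 5 Add1 null (knockout) animals, 5 Add1 heterozygous animals and 5 wild-type animals, and each gave 1 Affymetrix array. Add1 encodes alpha-adducin, a membrane skeleton protein that caps actin filaments and joins them to spectrin; the age was chosen to precede hydrocephalus. The sources used here do not say how the Add1 allele was made or which part of the gene it lacks, so it is unknown whether the Add1 probes lie in that part. All values are log2 signals after the authors' RMA normalization, so a difference of 1 is a doubling of signal, and differences of genes near the background are compressed. Signals of different probe sets were not ranked against each other, because probe sets differ in how strongly they hybridise.

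The epithelium of the choroid plexus secretes cerebrospinal fluid, and it does so by moving sodium, chloride and bicarbonate from the blood side to the ventricle side, with water following. Bicarbonate is made inside the cell by carbonic anhydrases or brought in by sodium-coupled carriers on the blood side, chloride enters there in exchange for bicarbonate, and bicarbonate leaves into the ventricle. In the red cell, the anion exchanger band 3 also anchors the spectrin and adducin skeleton to the membrane.

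Add1 signal was lower in the null animals. It measured 7.61 ± 0.161 in null, 7.76 ± 0.0996 in heterozygous and 7.92 ± 0.116 in wild-type arrays (SD, n = 5 each), with every null array below every wild-type array (exact two-sided permutation p = 0.00794 for null against wild type, the smallest that groups of 5 allow). The tissue label fitted its markers: all 10 measured choroid plexus epithelial markers were above the filter, and their mean signal lay between 11.32 and 11.37 in null, 11.29 and 11.42 in heterozygous and 11.32 and 11.42 in wild-type arrays. Single markers did differ between null and wild-type arrays, Aqp1 being higher and Kcne2 and Kcnj13 lower in null, as given below. Null arrays 1 and 5 went against the label male, with Xist, the RNA of the inactive X chromosome, at 9.09 and 9.69, and all others at 3.88 or below. In heterozygous array 1 the 8 cerebellar neuron markers averaged 7.37, against 5.51 or less in the other 14 arrays. The groups also differed in the number before the dot of each sample's description, whose meaning is not given: null arrays carried 444 to 483, heterozygous arrays 428 to 460 and wild-type arrays 429 to 451. For the anion transporters and the partner lists below, results are therefore also given without these arrays, or with that number in the model, where this changed a call. Calls of the other cell type markers and of correlated genes are given only from the main fit, to all arrays without that number.

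Among the anion transporters, Slc26a7 was the gene called in the main fit: it was 1.87-fold higher in null than in wild-type choroid plexus. None of the other 6 tested genes passed the test in that fit in any of the 3 comparisons of genotypes. The call of Slc26a7 against wild type did not hold in every alternative fit, and Slc4a3 and Slc4a4 each passed in 1, as given below. That is 1 of 7 genes called higher in null animals and 0 called lower, beside 4.17% of all tested genes called higher and 3.54% called lower, 7.72% in all. At an unadjusted p under 0.05, 2 of the 7 passed, Slc26a7 and Slc4a3, beside 24% of all tested genes. The median log2 difference of the 7 genes was 0.11, against 0.01 over all tested genes. Calls are Benjamini-Hochberg adjusted p-values under 0.05 from limma, adjusted over all 10109 genes. The arrays of null and wild-type animals overlapped for each of the 7 genes; 5.95% of the tested genes had no overlap. The arrays overlapped for all 7 as well between heterozygous and wild-type animals, where 0.801% of tested genes had no overlap, and between null and heterozygous animals, where 5.76% had none.

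**Figure D1:**
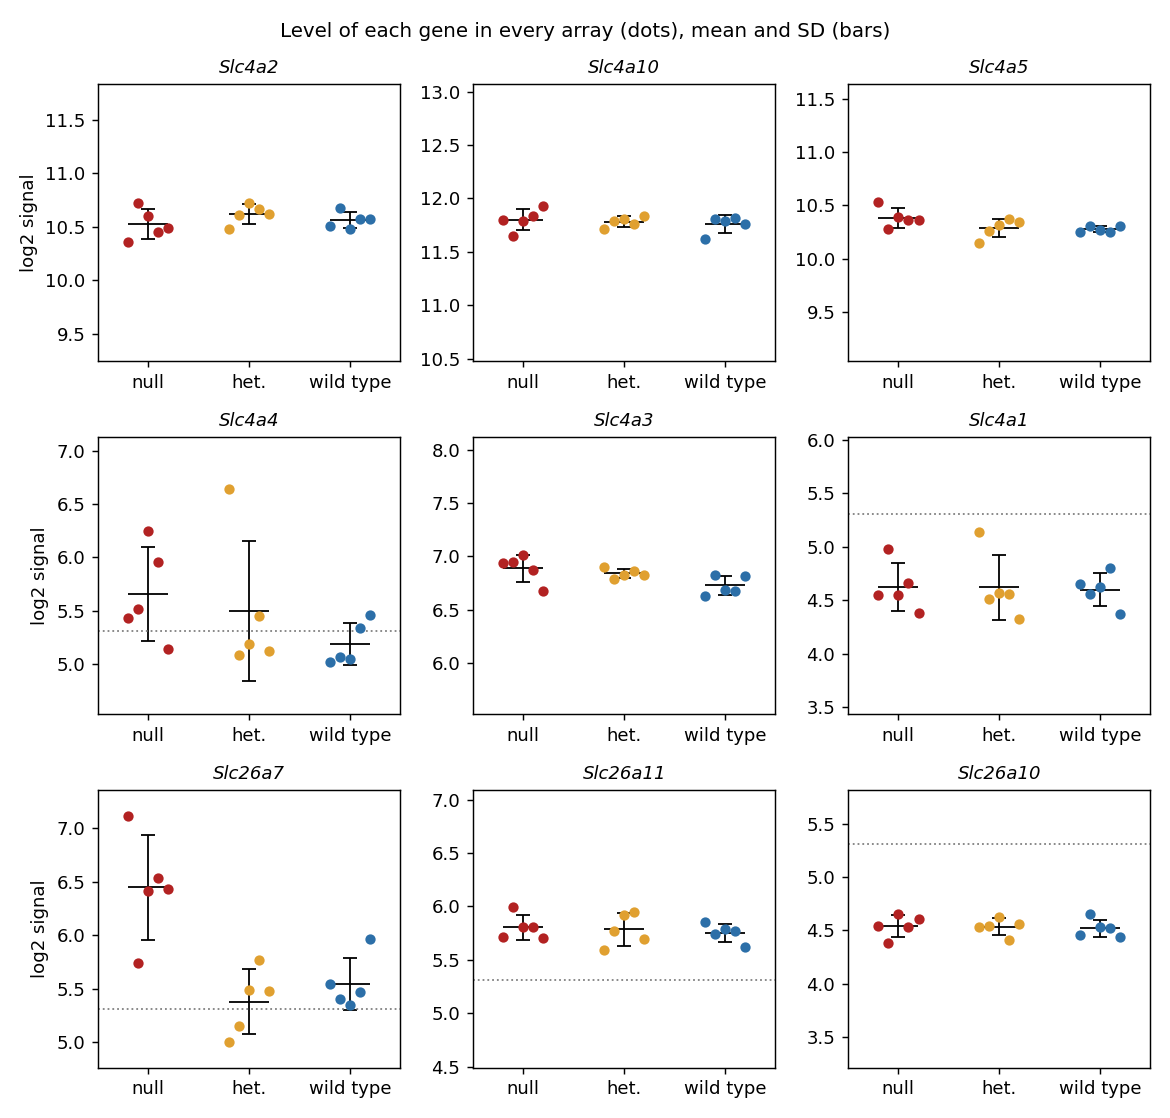
Log2 signal of the 9 genes (vertical axis, spanning the same 2.6 log2 units in every panel) in null, heterozygous and wild-type choroid plexus. Dots are arrays, replicates 1 to 5 from left to right, bars are means with SD (n = 5), and the dotted line is the filter at 5.31. Slc26a7 was at 6.41 or above in 4 of the 5 null arrays, and Slc4a4 was high in null arrays 3 and 4 and heterozygous array 1.

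Slc26a7 encodes an anion exchanger and chloride channel best known from acid-secreting cells of stomach and kidney and from the thyroid. Its probe set, 10511631, read 7.12, 5.74, 6.41, 6.54 and 6.43 in null arrays 1 to 5. It read 5.0, 5.15, 5.49, 5.77 and 5.48 in heterozygous arrays 1 to 5, and 5.54, 5.40, 5.35, 5.47 and 5.96 in wild-type arrays 1 to 5. Null arrays 1, 3, 4 and 5 lay above every heterozygous and wild-type array, and null array 2 fell among them, just under heterozygous array 4 and wild-type array 5. The mean was 6.45 ± 0.491 in null and 5.54 ± 0.243 in wild-type animals (SD, n = 5 each), a log2 difference of 0.90 with an SE of 0.194 (adjusted p = 0.00991 by limma). The 95% interval of the fold change ran from 1.41 to 2.49. The wild-type mean is close to the filter value, where folds on arrays are compressed.

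Against heterozygous animals the difference in Slc26a7 was of the same order. Null arrays averaged 6.45 and heterozygous arrays 5.38 ± 0.305 (SD, n = 5), a log2 difference of 1.07 with an SE of 0.194, or 2.1-fold (95% interval 1.58 to 2.79, adjusted p = 0.00448 by limma). This comparison uses the same null arrays as that with wild type and is not independent of it. Of all tested genes, 4.28% were called higher in null than in heterozygous animals. Heterozygous animals were 0.17 below wild type on the log2 scale, and the 95% interval of this difference, -0.58 to 0.24, holds neither a rise nor a fall of the size seen in null animals (adjusted p = 0.994 by limma).

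Slc26a7 also varied within genotypes. Its SD within genotypes was 0.362, below the 0.47 of Slc4a4, and the median of all tested genes was 0.122. The highest null value, 7.12, belonged to null array 1, which also lay farthest out on the first principal component of all tested genes (31.7% of the variance), at -22.1. The lowest, 5.74, belonged to null array 2, which lay at 0.733 on that axis, beside the wild-type arrays at 0.941 and above. Null arrays 3, 4 and 5, with Slc26a7 between 6.41 and 6.54, lay between -13.1 and -9.44. The part of this shared variation in the difference of Slc26a7 was not tested.

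The arrays that stood apart bore on the call. Without null arrays 1 and 5, those with Xist signal, the log2 difference of Slc26a7 from wild type was 0.69 and no longer passed (adjusted p = 0.0569), while that from heterozygous animals was 0.85 and passed (adjusted p = 0.0261). The 3 remaining null arrays read 5.74, 6.41 and 6.54, and 2 of them exceeded every wild-type array. With the description number as a covariate the difference was 0.86 from wild type (adjusted p = 0.135) and 1.03 from heterozygous animals (adjusted p = 0.0745). The only number shared by a null animal and another genotype was 460, with Slc26a7 at 5.74 in null array 2 and 5.48 in heterozygous array 5. The call held in each of the 15 fits that left out 1 array, with differences from wild type between 0.74 and 1.08 and adjusted p-values of 0.0308 or less. Fits without a heterozygous array could not move this difference, only its SE and adjusted p-value.

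**Figure D2:**
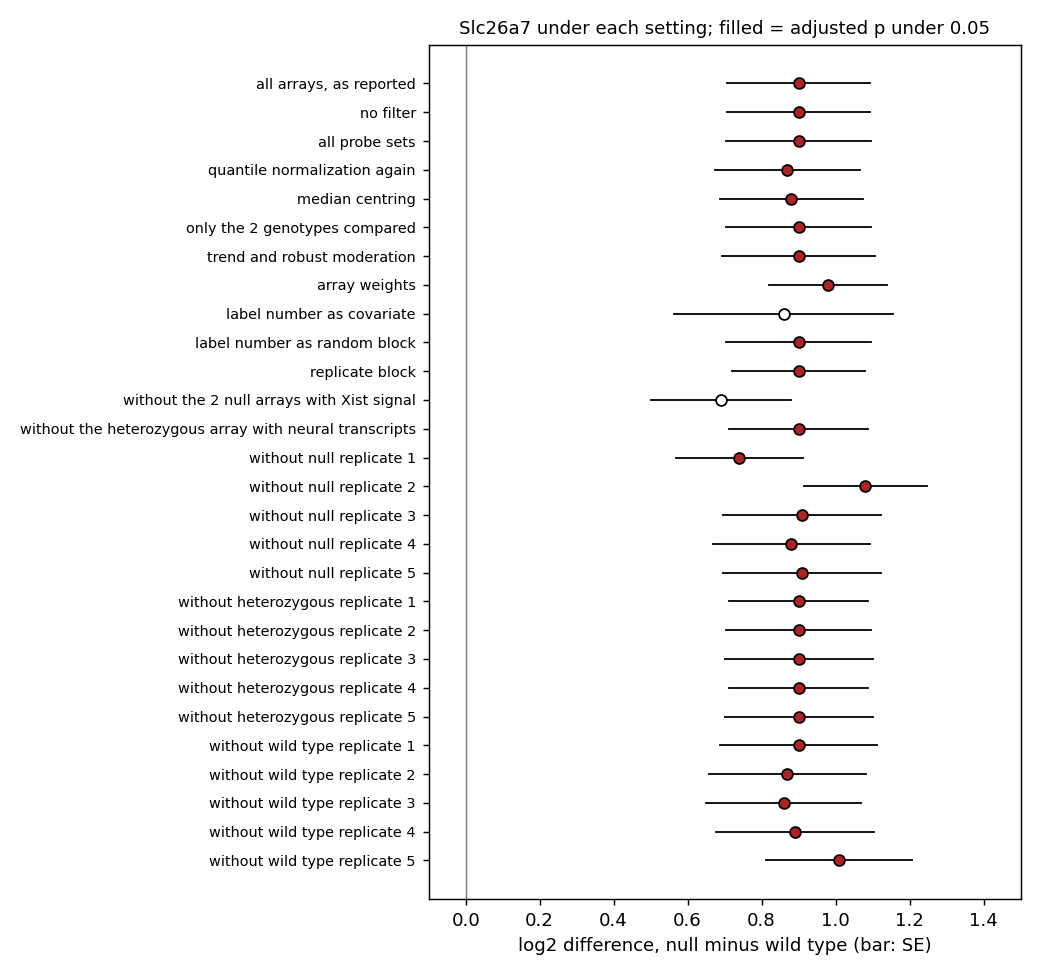
Log2 difference of Slc26a7, null minus wild type (horizontal axis), under each setting of the analysis (rows); dots are differences, bars are SE, and filled dots have an adjusted p under 0.05. All values lie between 0.69 and 1.08, and the open dots are the fit with the description number as a covariate and the fit without the 2 null arrays with Xist signal.

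Some markers of other cell types also differed between null and wild-type arrays. The 6 stromal fibroblast markers averaged 7.93 to 8.41 per null array and 7.62 to 8.0 per wild-type array, and 2 of them were called higher in null animals. The 8 endothelial markers averaged 5.66 to 6.18 and 5.51 to 5.88, and 2 of the 5 tested were called higher in null. Emcn, also tested, read 7.03 to 7.34 in null and 6.85 to 7.55 in wild-type arrays. Of 6 tested ependymal and ciliated markers, 1 was called higher and 2 lower. Among all tested genes 4.17% were called higher and 3.54% lower. In bulk tissue, more cells of a type and more RNA per cell cannot be told apart. The stromal genes did not move as one in the null arrays. Pdgfra, a growth factor receptor gene of fibroblasts, read 9.38, 8.29, 9.16, 8.72 and 8.75 in null arrays 1 to 5, and Dcn, which encodes the matrix proteoglycan decorin, read 9.86, 9.36, 9.78, 9.79 and 9.54. Both were highest in null array 1 and lowest in null array 2, as Slc26a7 was. The other markers of the list went the other way. Lum, which encodes lumican, was lower in null array 1 (6.21) than in null array 2 (7.57). So were the collagen genes Col1a1 (7.18 against 7.94), Col1a2 (8.48 against 8.82) and Col3a1 (6.53 against 7.09), and the mean of the 6 markers (7.94 against 8.18). The part of stromal and endothelial RNA in the difference of Slc26a7 was not tested.

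The 3 genes with the highest Pearson correlation with Slc26a7 over the 15 arrays were Abca5, a lipid transporter of the ABC family (r = 0.956), Nfat5, the transcription factor that responds to hypertonicity (r = 0.946), and Neo1, which encodes the netrin and repulsive guidance receptor neogenin (r = 0.945). These correlations describe arrays that share the split between genotypes. Abca5 was 0.38 (adjusted p = 0.024) and Neo1 0.39 (adjusted p = 0.0191) higher in null than in wild-type animals on the log2 scale by limma. Nfat5 averaged 7.17 in null and 6.97 in wild-type arrays and did not pass (adjusted p = 0.113).

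The carriers best known from the choroid plexus epithelium did not differ detectably between genotypes. Slc4a2 encodes AE2, which exchanges chloride for bicarbonate at the blood side of the epithelium. It averaged 10.52 ± 0.139 in null, 10.62 ± 0.0897 in heterozygous and 10.56 ± 0.0766 in wild-type arrays (SD, n = 5 each). Its difference between null and wild type was -0.04, with a 95% interval of -0.18 to 0.11 (limma adjusted p = 0.783). Slc4a10 encodes the sodium-coupled bicarbonate carrier NCBE, through which bicarbonate enters from the blood side. It averaged 11.80 ± 0.101 in null, 11.78 ± 0.0497 in heterozygous and 11.76 ± 0.0815 in wild-type arrays (SD, n = 5 each), a difference between null and wild type of 0.04 with an interval of -0.08 to 0.17 (limma adjusted p = 0.712). For both genes the interval leaves out any change as large as that of Slc26a7: as folds it runs from 0.881 to 1.08 for Slc4a2 and from 0.944 to 1.12 for Slc4a10.

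Slc4a5 encodes NBCe2, the electrogenic sodium-bicarbonate cotransporter of the ventricle-facing membrane. It read 10.53, 10.28, 10.39, 10.36 and 10.36 in null arrays 1 to 5. Heterozygous arrays read 10.15, 10.26, 10.32, 10.37 and 10.34, and wild-type arrays 10.25, 10.31, 10.27, 10.25 and 10.31. Of the null arrays, 4 exceeded every wild-type array and null array 2 lay among them. The difference was small, 0.11 with an SE of 0.057 and a 95% interval of -0.01 to 0.23, and did not pass (adjusted p = 0.27 by limma). Heterozygous and wild-type animals differed by 0.01 (interval -0.11 to 0.13).

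**Figure D3:**
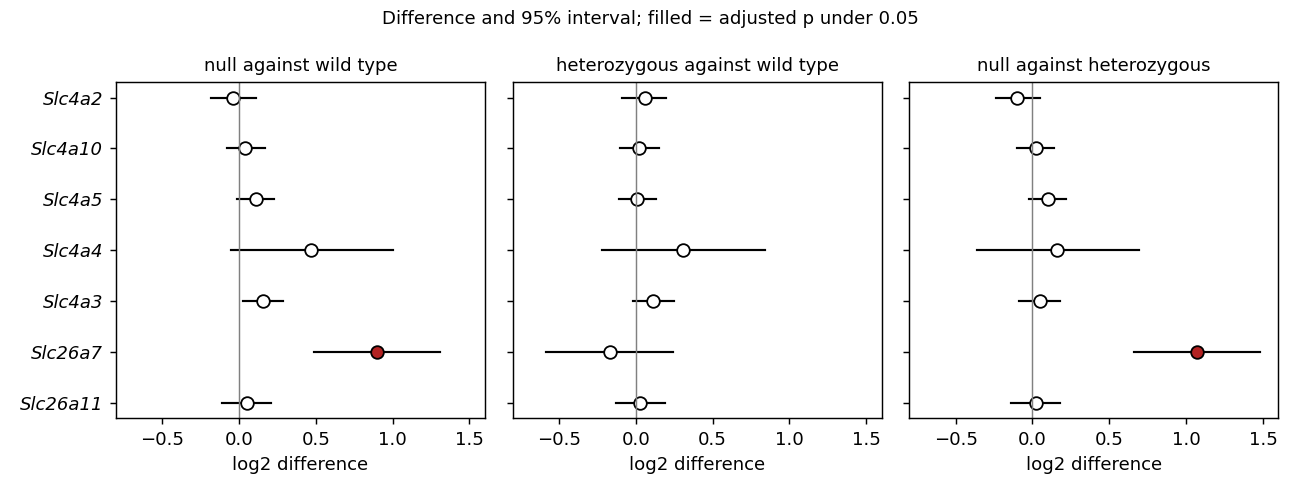
Log2 difference (horizontal axis) with its 95% interval for the 7 tested genes (rows) in each pair of genotypes (panels); filled dots have an adjusted p under 0.05. Slc26a7 is the filled dot in both panels with null animals, at 0.90 and 1.07. Slc4a4 and Slc26a7 have wide intervals, while those of Slc4a2, Slc4a10, Slc4a5, Slc4a3 and Slc26a11 lie between -0.24 and 0.29 in every panel.

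Slc4a3 encodes AE3, a chloride-bicarbonate exchanger of heart and brain. Its main probe set read 6.94, 6.95, 7.01, 6.87 and 6.68 in null arrays 1 to 5. Heterozygous arrays read 6.90, 6.79, 6.83, 6.86 and 6.83, and wild-type arrays 6.63, 6.83, 6.69, 6.68 and 6.82. Again 4 null arrays lay above all wild-type arrays, the exception here being null array 5. The log2 difference between null and wild type was 0.16 with an SE of 0.064, which did not pass (adjusted p = 0.134 by limma), and it passed without null array 5 (0.21, adjusted p = 0.0299). Without null arrays 1 and 5 together it was 0.21 (adjusted p = 0.0706). Heterozygous animals were 0.11 above wild type (interval -0.02 to 0.25, adjusted p = 0.994). A further probe set of Slc4a3, below the filter, averaged 4.78 ± 0.281 in null, 4.79 ± 0.193 in heterozygous and 4.73 ± 0.103 in wild-type arrays (SD, n = 5 each). The genes most like Slc4a3 over the 15 arrays were Sdc4 (r = 0.895), the proteoglycan syndecan 4, Coro1c (r = 0.894), an actin-binding coronin, and Anks1 (r = 0.891). None of these 3 passed between null and wild type, with adjusted p-values of 0.0563 for Sdc4, 0.137 for Coro1c and 0.189 for Anks1 by limma.

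Slc4a4 encodes NBCe1, the electrogenic sodium-bicarbonate cotransporter of kidney proximal tubule and pancreas, which astrocytes also carry. It read 5.43, 5.52, 6.25, 5.96 and 5.14 in null arrays 1 to 5. Heterozygous arrays read 6.64, 5.09, 5.19, 5.45 and 5.12, and wild-type arrays 5.02, 5.07, 5.05, 5.34 and 5.46. High values were thus limited to null arrays 3 and 4 and heterozygous array 1, and the remaining 12 arrays lay between 5.02 and 5.52. Its difference between null and wild type, 0.47 with an SE of 0.25, did not pass (95% interval -0.05 to 1.0, adjusted p = 0.263 by limma). It passed when arrays were weighted by their quality (0.65, adjusted p = 0.0472). The difference between heterozygous and wild-type animals was 0.31 with heterozygous array 1 and 0.02 without it.

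The mean of the astrocyte markers was high in the same 3 arrays, though not every marker was. The 7 markers averaged 6.79 and 6.87 in null arrays 3 and 4 and 7.06 in heterozygous array 1. They averaged between 5.88 and 6.32 in the other 12 arrays. Gfap, the astrocyte intermediate filament gene, read 6.60 and 6.39 in null arrays 3 and 4 and 6.42 in heterozygous array 1, and 5.55 or less elsewhere. The cerebellar neuron markers averaged 5.17 and 4.95 in null arrays 3 and 4 and so were high in heterozygous array 1 alone. The part of astrocyte RNA in the differences of Slc4a4 was not tested. The genes most like Slc4a4 over the 15 arrays were the kinase Fyn (r = 0.967), the matricellular gene Sparcl1 (r = 0.948) and Prkcb, a protein kinase C (r = 0.93). None of these 3 passed between null and wild type.

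**Figure D4:**
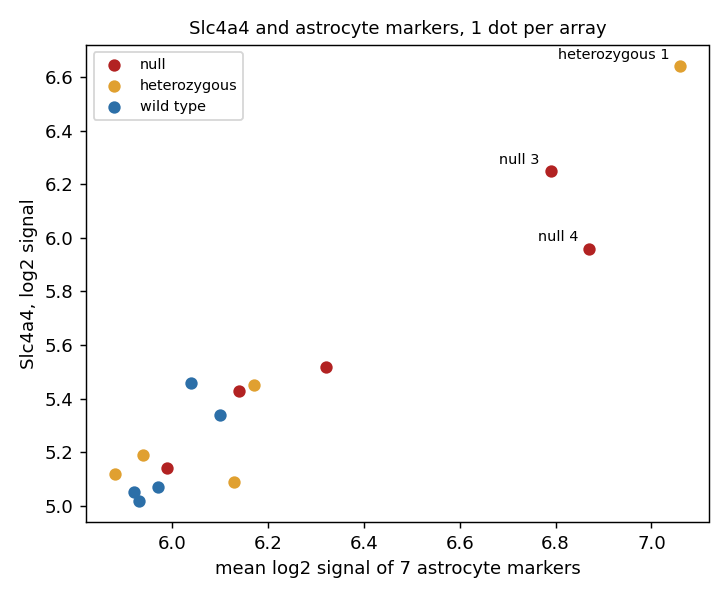
Slc4a4 log2 signal (vertical axis) against the mean log2 signal of 7 astrocyte markers (horizontal axis), with 1 dot per array coloured by genotype. Null arrays 3 and 4 and heterozygous array 1 stand apart on both axes, with Slc4a4 at 5.96 or above and the marker mean at 6.79 or above.

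Slc26a11, which encodes a sulfate transporter of the SLC26 family, did not differ detectably. It averaged 5.80 ± 0.117 in null, 5.78 ± 0.152 in heterozygous and 5.75 ± 0.085 in wild-type arrays (SD, n = 5 each), and all 15 values lay between 5.59 and 5.99. Its difference between null and wild type was 0.05, with a 95% interval of -0.11 to 0.21 (limma adjusted p = 0.734).

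Both remaining genes were below the filter in all 15 arrays. Slc4a1 encodes AE1, or band 3, the anion exchanger of red cells whose skeleton contains adducin. It ranged from 4.38 to 4.98 in null, 4.32 to 5.14 in heterozygous and 4.37 to 4.80 in wild-type arrays. The highest Slc4a1 value was in heterozygous array 1. Of 6 measured erythroid markers only 2, Alas2 and Tspan33, were above the filter, and the list averaged 4.71 to 5.09 in null, 4.89 to 5.06 in heterozygous and 4.84 to 5.03 in wild-type arrays. Slc26a10, another member of the SLC26 family, ranged from 4.38 to 4.65 in null, 4.41 to 4.63 in heterozygous and 4.44 to 4.65 in wild-type arrays. In a fit without the filter, the difference between null and wild type was 0.02 for each of these genes (adjusted p = 0.963 for Slc4a1 and 0.927 for Slc26a10 by limma). With signals this close to background, differences in either gene are compressed.

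Between heterozygous and wild-type animals, limma called 0 of the 7 genes, as it called 0% of all tested genes. None of the 7 had an unadjusted p under 0.05 either, beside 381 such genes in the whole table, or 3.77%. The median log2 difference of the 7 genes was 0.03, and the largest difference, 0.31, was that of Slc4a4. Between null and heterozygous animals, 1 of the 7 was called higher, Slc26a7, and 0 lower, beside 4.28% and 3.54% of all tested genes, 7.82% in all. The same 1 gene had an unadjusted p under 0.05, beside 25.8% of all tested genes. Slc4a2 was 0.10 lower in null than in heterozygous animals (95% interval -0.24 to 0.05) and did not pass (adjusted p = 0.401).

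The partners of these carriers in acid-base transport were counted in lists, beside 7.72% of all tested genes called between null and wild type. Of the other 11 SLC4 and SLC26 genes measured, 3 passed the filter and 0 were called between null and wild type. The smallest p was that of the sulfate transporter gene Slc26a2, with a log2 difference of -0.11 (adjusted p = 0.562). Of the carbonic anhydrases, which interconvert carbon dioxide and bicarbonate, 9 of 16 passed the filter and 0 were called. Car8, a catalytically inactive member found in Purkinje cells, had the smallest p (-0.74, adjusted p = 0.154). Of the sodium-proton exchangers 2 of 7 passed the filter and 0 were called, with Slc9a7, an exchanger of the Golgi, at -0.19 (adjusted p = 0.206).

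The remaining 4 lists each held called genes, and their counts stand beside 4.17% of all tested genes called higher in null than in wild-type animals and 3.54% called lower, 7.72% in all. Among 17 tested subunits of the V-type proton ATPase, which acidifies organelles, 1 rose and 0 fell in null against wild-type animals, with a list median of -0.06. The riser was Atp6v0a1, a membrane subunit, at 9.33 ± 0.0831 in null and 9.08 ± 0.151 in wild-type arrays (SD, n = 5 each; adjusted p = 0.0368 by limma). Among 8 tested regulators and sensors of bicarbonate transport 1 rose, the kinase gene Wnk4, by 0.71 (adjusted p = 0.00814), and 0 fell. The wild-type mean of Wnk4, 5.39, is close to the filter value, where folds are compressed.

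Of 14 tested partner channels and transporters of the choroid plexus epithelium, 2 rose and 2 fell. The chloride channel gene Clcn2 averaged 6.43 ± 0.0787 in null and 6.16 ± 0.165 in wild-type arrays, and the potassium channel gene Kcnj13 12.35 ± 0.0926 in null and 12.58 ± 0.0981 in wild-type arrays (SD, n = 5 each; limma adjusted p = 0.0368 and 0.027). The others called were the water channel gene Aqp1, higher by 0.34, and Kcne2, a potassium channel subunit gene (-0.24). Of 6 tested genes from the list of red cell partners of band 3, the glucose transporter gene Slc2a1 rose (0.58) and Mpp1, a scaffold of the membrane skeleton, fell (-0.32). The cells of this tissue from which these transcripts came were not tested.

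Single arrays decided several of these calls. Those of Atp6v0a1, Clcn2, Kcne2, Kcnj13 and Mpp1 were each lost without null array 1 or 3 or wild-type array 1 or 2. Those of Atp6v0a1, Clcn2 and Mpp1 were also lost without wild-type array 3, and that of Clcn2 without null array 4 (adjusted p up to 0.101). Without the filter Atp6v0a1 (adjusted p = 0.0654) and Clcn2 (adjusted p = 0.0648) no longer passed. After median centring of the arrays Atp6v0a1 (0.22, adjusted p = 0.0674) and Clcn2 (0.25, adjusted p = 0.0567) no longer passed, nor did Clcn2 after a further quantile normalization (0.24, adjusted p = 0.0504). All 5 calls were lost in fits to the 2 genotypes alone and with the description number as a covariate. Without null arrays 1 and 5 the counts of genes called higher and lower were 0 and 0 for the ATPase, 1 and 0 for the regulators, 1 and 0 for the epithelial partners and 1 and 0 for the red cell partners. Between null and wild type, Wnk4, Aqp1 and Slc2a1 passed in all 15 fits that left out 1 array and in each other alternative that tested them. Here too, fits without a heterozygous array could not move the differences themselves. Aqp1, Kcne2 and Kcnj13 were also called between null and heterozygous animals. With the description number as a covariate these calls were lost (limma adjusted p = 0.12, 0.145 and 0.0903). Those of Kcne2 and Kcnj13 were also lost without null arrays 1 and 5, and without heterozygous array 1.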

How the data were processed

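RNA of the choroid plexus was measured on 15 arrays, 1 per animal, 5 per Add1 genotype. Per the submitters' processing notes, the authors used Affymetrix Expression Console 1.1 and RMA, which corrects background, normalizes quantiles and summarises probe sets. The deposited values were taken as log2 from their range (1.57 to 13.89); the sources used here name no genome build. Of 35556 probe sets, 21789 had 1 gene symbol in the platform annotation, 1621 several and 12146 were not listed; 21698 gene identifiers matched the RefSeq table of GRCm38.p6, used for names only. Probe sets with several symbols were left out. For each gene the probe set with the highest mean was kept, and genes above 5.31, the median of these values, in at least 5 arrays were tested.

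All arrays entered 1 limma 3.58.1 model (R 4.3.3) with a mean per genotype and 12 residual degrees of freedom; Benjamini-Hochberg adjusted p-values under 0.05 over all tested genes were called. The procedure was tested on simulated data in which genes varied independently of each other, so variation shared between genes was not covered. The genes, the lists of partner genes and cell type markers, and the alternatives were chosen with earlier results of these data known. Values in every array were given for the 4 genes with the smallest p between null and wild type, and the 3 most correlated genes for the first 3 of them. Up to 4 called genes were named per list, or the smallest p where none was called. No arrays were identical; nothing in the labels says whether animals shared litters. The number of arrays limits the precision.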

Additional observations from a re-analysis of the deposited data

Results flagged for a closer look

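Slc4a4 stood out in heterozygous array 1, where it read 6.64 while the other heterozygous arrays read 5.09 to 5.45. The gap to the next array was 0.768 of the range of the group, above the critical value of 0.71 for 5 samples in Dixon's test. Of 27 groups of 5 arrays examined, 3 genotypes for each of 9 genes, this was the 1 that passed, and chance flags about 1 group in 20. The same array had the highest means of astrocyte (7.06), oligodendrocyte (7.37) and cerebellar neuron markers (7.37).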

How the results depend on the processing

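Over the 27 alternatives that could test it, Slc26a7 was higher in null than in wild-type animals in all and passed in 25; against heterozygous animals it passed in 26. The fit without heterozygous array 1 enters these tallies repeatedly, for its neural transcripts and among the fits that left out 1 array. Above a filter of 6 Slc26a7 was not tested, so that 0 of the genes were called in either comparison. The count called higher between null and wild type was 0 with the description number as a covariate or without the 2 null arrays with Xist signal, 2 with array weights, and 1 to 2 when 1 array was left out (2, with Slc4a3, without null array 5). Between null and heterozygous animals it was 0 with that covariate. Among all genes, 780 were called between null and wild type and 791 between null and heterozygous animals. These counts were 458 and 342 in fits to the 2 genotypes compared, 1315 and 1296 with array weights, 259 and 199 with the description number as a covariate, and 401 and 332 without the arrays with Xist signal. The second was 500 without the filter and 456 without heterozygous array 1. Leaving out 1 array gave 392 to 1420 and 356 to 1812, with the highest without null array 2; the counts moved by over 1.5 times without null array 1, 2 or 3, wild-type array 1, 2 or 3 (the first count) or heterozygous array 1, 2 or 3 (the second). Of all genes, 1 was called between heterozygous and wild-type animals with array weights and without the arrays with Xist signal, and 0 to 1 when 1 array was left out. The difference of Add1 without 1 array was -0.35 to -0.26. Replicate numbers of the titles were not taken to pair the arrays, since in no pair of genotypes did all 5 same-numbered pairs correlate above 0.1: deviations of same-numbered arrays from their group means correlated at -0.254 to 0.238 (-0.0562 to 0.15 between heterozygous and wild type), and 0, 4 and 1 of 5 arrays correlated best with their own number in the pairs null and wild type, heterozygous and wild type, and null and heterozygous. Heterozygous arrays 2, 3 and 4 carried the same description numbers (429, 432 and 432) as the wild-type arrays of their own replicate number. A pairing of these 2 genotypes is therefore not excluded. With the replicate block 520 and 546 genes were called, Slc26a7 differed by 0.90 (adjusted p = 0.0117) and 1.07 (adjusted p = 0.00746), and 1 of the genes was called in each comparison with null. The block ended the calls between null and wild type of Atp6v0a1 (adjusted p = 0.08), Clcn2 (0.0704), Kcne2 (0.0621) and Kcnj13 (0.0625), and those between null and heterozygous of Atp6v1d (0.0587), Sptb (0.055), Kcne2 (0.0769) and Kcnj13 (0.0893). Signal over background limits Slc4a1 and Slc26a10, which were below the filter in all arrays.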

Other observations

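Between null and heterozygous animals the partner lists gave calls for V-type ATPase subunits that did not pass against wild type. Atp6v0b, of the membrane part, averaged 10.36 ± 0.179 in null and 10.65 ± 0.0498 in heterozygous arrays, and Atp6v1d, of the stalk, 9.53 ± 0.143 in null and 9.81 ± 0.109 in heterozygous arrays (SD, n = 5 each; limma adjusted p = 0.0363 and 0.0382). That is 0 of 17 subunits called higher and 2 lower, beside 4.28% and 3.54% of all tested genes (7.82% in all), and 0 lower without null arrays 1 and 5. Without the filter neither Atp6v0b (adjusted p = 0.0628) nor Atp6v1d (adjusted p = 0.0658) passed. Sptb, the beta-spectrin gene of the red cell, was lower in null (6.85) than in heterozygous arrays (7.07; adjusted p = 0.0259). The call of Atp6v0b was lost in 7 of the 15 fits without 1 array, that of Atp6v1d in 6 and that of Sptb in 5. With the description number as a covariate none of these calls held (limma adjusted p = 0.448 for Atp6v0b, 0.118 for Atp6v1d and 0.269 for Sptb). Without heterozygous array 1 Atp6v0b (adjusted p = 0.0749) and Sptb (adjusted p = 0.0627) did not pass. Sptb also did not pass without null arrays 1 and 5 (adjusted p = 0.0875). Whether these differences differ from those against wild type was not tested.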
